A study of Homo sapiens with 14 samples.

Results

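The nuclear lamina mRNAs examined here were those of 10 listed genes, LMNA, LMNB1, LMNB2, LBR, EMD, TMPO, BANF1, LEMD2, SUN1 and SUN2. The deposited counts covered 58434 gene symbols, of which 27761 had no read. The 10 genes were listed by name for their place in the lamina or the inner nuclear membrane. The study also used Lamin A, encoded by LMNA, as a control independent of DAP5, the eIF4G homolog encoded by EIF4G2. That control was a protein level on immunoblots after DAP5 siRNA, and the study described its mRNA as not dependent on DAP5. The values here are mRNA levels after a DAP5 shRNA. The cells were MDA-MB-231, an established human triple-negative breast cancer line, carrying a stable doxycycline-inducible shRNA that was either non-silencing (MB-231-shNSi) or directed at DAP5 (MB-231-shDAP5). Both lines received doxycycline at 1 µg/ml for 6 days. Each line had 2 cultures, sampled as total mRNA, as light polysome (poorly translated) mRNA and as heavy polysome (well-translated) mRNA, and the pool between them, moderate polysomes, was sequenced from MB-231-shNSi alone, which gave 14 libraries.

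The labels of some libraries conflict. The MB-231-shDAP5 libraries titled light carry in their description the code that marks the moderate pool of MB-231-shNSi, and were taken as light by title, so light polysome results are given against both pools of MB-231-shNSi. The title of the MB-231-shDAP5 total libraries also names polysomes, but their code is that of total mRNA in MB-231-shNSi, and they were treated as such. Each line carries a single shRNA, so p-values measure the spread between these cultures. The cultures are told apart by a replicate number and by a further code in the description. That code is not explained in the labels and differs in each culture, so what it marks cannot be told apart from the shRNA. Exact permutation of 4 cultures, 2 in each line, cannot give a two-sided p below 0.333 for a single value, and the tests below rest on a spread estimated over all genes.

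The libraries held between 25899838 and 30795910 counts. Levels are CPM, the counts of a gene relative to its library's total as scaled by TMM over the 14 libraries, and a level in a polysome library is a share of that library and not an amount of RNA. VIM and CD44, expressed by mesenchymal breast cancer cells, had at least 798 and 105 CPM in every library. In heavy polysomes both were lower in MB-231-shDAP5 than in MB-231-shNSi, with log2 changes for VIM of −1.35, standard error 0.40, adjusted p = 0.00559, and for CD44 of −1.94, standard error 0.39, adjusted p = 3.22e-05. VIM was not called without MB-231-shNSi culture 2 (−1.31) or MB-231-shDAP5 culture 2 (−1.41), at −0.72 by limma, or at −0.64 and 0.46 against the summed and the moderate pool of MB-231-shNSi, and CD44 was not called without MB-231-shDAP5 culture 2 (−2.47) or against the moderate pool. In total mRNA both were also lower in MB-231-shDAP5, and neither was called there by edgeR. CD44 had 485 and 624 CPM in total mRNA of MB-231-shNSi and 187 and 308 in MB-231-shDAP5, and VIM had 5076 and 5233 against 3960 and 4040. ESR1, CDH1 and the leukocyte marker PTPRC had at most 16, 8 and 7 counts in any library, EPCAM between 76 and 169. PGR had 0 counts in the 14 libraries, which allows up to 3 counts in each, counting error only. In the shallowest library, light polysomes of MB-231-shNSi culture 1, 3 counts are 0.116 CPM without TMM and 0.102 CPM with it. With TMM the bound is higher in heavy polysomes of MB-231-shNSi, at 0.140 CPM in culture 1. PECAM1 was not analysed here.

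EIF4G2, the silenced gene, was at 1392 and 1359 CPM in total mRNA of the MB-231-shNSi cultures and at 526 and 730.3 in the MB-231-shDAP5 cultures. Both silenced cultures lay below both control cultures, with a log2 change of −1.11 (standard error 0.18, adjusted p = 0.0172) in the quasi-likelihood fit of edgeR, used throughout with p-values adjusted over all genes tested. The change did not pass the adjusted threshold of 0.05 without MB-231-shDAP5 culture 1 (−0.90), at −1.07 by library size or at −1.08 by limma. In these bulk libraries, fewer cells with an mRNA and less of it per cell cannot be told apart.

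The nuclear lamina is a meshwork of intermediate filament proteins under the inner nuclear membrane. A-type lamins, from LMNA, and B-type lamins, from LMNB1 and LMNB2, form the filaments. Proteins such as LBR, emerin (EMD), the LAP2 proteins (TMPO) and LEMD2 tie them to chromatin. Part of this tie runs through BANF1, a small DNA-bridging protein that binds the LEM domain. SUN1 and SUN2 span the inner membrane and join the lamina to nesprins of the outer membrane and so to the cytoskeleton, and the lamina is known for setting the stiffness of the nucleus in cells that migrate.

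Positions are those of GRCh38 in the GENCODE v29 annotation. The reads were aligned to hg19, so the annotation was joined by symbol. Among the lamin genes, LMNA lies on chromosome 1 (156082573 to 156140089 on the plus strand), LMNB1 on chromosome 5 (126776623 to 126837020 on the plus strand) and LMNB2 on chromosome 19 (2427638 to 2456996 on the minus strand). LBR is on chromosome 1 (225401502 to 225428925 on the minus strand), EMD on chromosome X (154379197 to 154381523 on the plus strand), TMPO on chromosome 12 (98515512 to 98550379 on the plus strand), LEMD2 on chromosome 6 (33771202 to 33789136 on the minus strand) and BANF1 on chromosome 11 (66002079 to 66004149 on the plus strand). SUN1 is on chromosome 7 (816615 to 896435 on the plus strand) and SUN2 on chromosome 22 (38734725 to 38794143 on the minus strand). The longest coding sequence has 89 codons in BANF1 and 254 in EMD, whereas the other 8 members have between 503 (LEMD2) and 822 (SUN1). The BANF1 coding sequence is short enough to be shown whole, 5′ to 3′, because its values differ from those of the longer members below, with the start and stop codons in capitals.

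BANF1: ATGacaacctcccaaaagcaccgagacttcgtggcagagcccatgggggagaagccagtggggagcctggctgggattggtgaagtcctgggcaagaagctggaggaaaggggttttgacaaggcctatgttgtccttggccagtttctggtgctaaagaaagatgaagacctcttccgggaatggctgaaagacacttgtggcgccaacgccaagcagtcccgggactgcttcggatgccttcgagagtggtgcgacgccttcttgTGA

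The lamins differ from the other members in a shared end of the reading frame, known as the CaaX motif, at which farnesyl is attached and the protein then clipped and methylated. The last 30 bases of each coding sequence are shown 5′ to 3′, with the 4 codons before the stop codon in capitals.

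LMNA: cagagcccccagaacTGCAGCATCATGtaa
LMNB1: gcatccaatagaagcTGTGCAATTATGtaa
LMNB2: accacctcaagaggcTGCTACGTGATGtga

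In each lamin the capitals open with TGC or TGT and close with ATG.

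How reads over overlapping genes were assigned is not stated in the sources used here. Whether strand was used is open: the name of the deposited table has the abbreviation rev, which no source explains. In the annotation LMNB2 overlaps TIMM13, SUN1 overlaps GET4, SUN2 overlaps DNAL4 and GTPBP1, TMPO overlaps its antisense TMPO-AS1 and BANF1 overlaps EIF1AD, so part of the counts of these members can come from the neighbour. The 7 pseudogene copies of BANF1 and TMPO in the count file had at most 38 counts in any library.

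In total mRNA the members were compared with each other as CPM per kilobase of merged exons, over the 4 total libraries. BANF1 stood highest, at 252 ± 18.6 (SD, n = 4 libraries), and no other member reached its range. LMNA (80.7 ± 11.2) and LMNB2 (80.4 ± 10.5) followed with overlapping ranges, then EMD (56.6 ± 7.35) and LMNB1 (41.2 ± 6.44). TMPO, from 25.3 to 36.8, overlapped with LMNB1, and LBR was lower at 14.1 ± 2.39. SUN2, LEMD2 and SUN1 were the lowest on this scale, at 7.56 ± 2.01, 6.71 ± 0.888 and 5.88 ± 0.519, and their ranges overlapped. Per kilobase of coding sequence the first 4 kept their places, and LMNB1 and TMPO changed places, as did the last 3 among themselves.

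The distribution of each mRNA between fractions was first examined in the control cells. In MB-231-shNSi, 8 of the 10 members were higher in heavy than in light polysomes (33.8% of 15514 genes tested) and 2, EMD and BANF1, were lower (31.9%). The members' median log2 difference was 2.01, and that of all genes tested was −0.06. Scaled by library size instead of TMM, the median of all genes was −0.54, 3883 genes were called higher and 6886 lower, against 5242 and 4942 with TMM, and the members kept their directions, with LEMD2 at 0.08 and no longer called.

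LMNA, the A-type lamin gene, was at 584 and 665 CPM in total mRNA, 122 and 301 in light, 155 and 662 in moderate and 1321 and 1817 in heavy polysomes of the MB-231-shNSi cultures. The heavy libraries were the highest in both cultures and the light ones the lowest, while the moderate pool differed widely between the cultures. The heavy over light log2 difference was 2.94 (standard error 0.43, adjusted p = 4.87e-05). LMNB1, a B-type lamin gene, had 50.3 and 80.1 CPM in light, 89.3 and 154 in moderate and 335 and 444 in heavy polysomes, with a difference of 2.51 (standard error 0.29, adjusted p = 1.03e-05). LMNB2, the other B-type lamin gene, had 156 and 234 CPM in light and 812 and 1237 in heavy polysomes and differed by 2.30 (standard error 0.34, adjusted p = 4.51e-05). For the 3 lamins the heavy level of each culture was above both of the light levels.

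The membrane and chromatin-binding members fell on both sides. EMD, encoding emerin, was at 178 and 157 CPM in light, 169 and 70.2 in moderate and 61.5 and 50.3 in heavy polysomes of MB-231-shNSi, and BANF1, its small binding partner, at 946 and 576 CPM in light, 313 and 164 in moderate and 144 and 149 in heavy polysomes. Both were lowest in the heavy libraries, and the moderate level of EMD again differed between the cultures. The heavy over light differences were −1.68 (standard error 0.32, adjusted p = 0.000410) for EMD and −2.41 (standard error 0.37, adjusted p = 6.27e-05) for BANF1. LBR, the lamin B receptor, which is also a sterol reductase, went the other way, with 53.0 and 44.7 CPM in light and 154 and 174 in heavy polysomes and a difference of 1.66 (standard error 0.26, adjusted p = 7.04e-05). TMPO, encoding the LAP2 proteins, had 103 and 191 CPM in light and 665 and 540.5 in heavy polysomes and differed by 2.04 (standard error 0.38, adjusted p = 0.000308). The smallest difference was that of LEMD2, a LEM-domain protein of the inner membrane, with 35.9 and 48.6 CPM in light and 54.0 and 79.6 in heavy polysomes, at 0.56 (standard error 0.23, adjusted p = 0.0443). In LBR, TMPO and LEMD2 the fractions did not overlap. LEMD2 was not called without a term for each culture (0.58).

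SUN1 and SUN2, which encode the inner membrane part of the bridge to the cytoskeleton, were both higher in heavy polysomes. SUN1 had 37.8 and 42.4 CPM in light and 130.0 and 216 in heavy polysomes, and SUN2 had 15.3 and 30.7 in light and 93.8 and 188 in heavy polysomes. In both genes MB-231-shNSi culture 2 was the higher one in the heavy fraction, and the fractions did not overlap. The differences were 1.98 (standard error 0.27, adjusted p = 3.06e-05) and 2.53 (standard error 0.27, adjusted p = 7.78e-06).

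**Figure D1:**
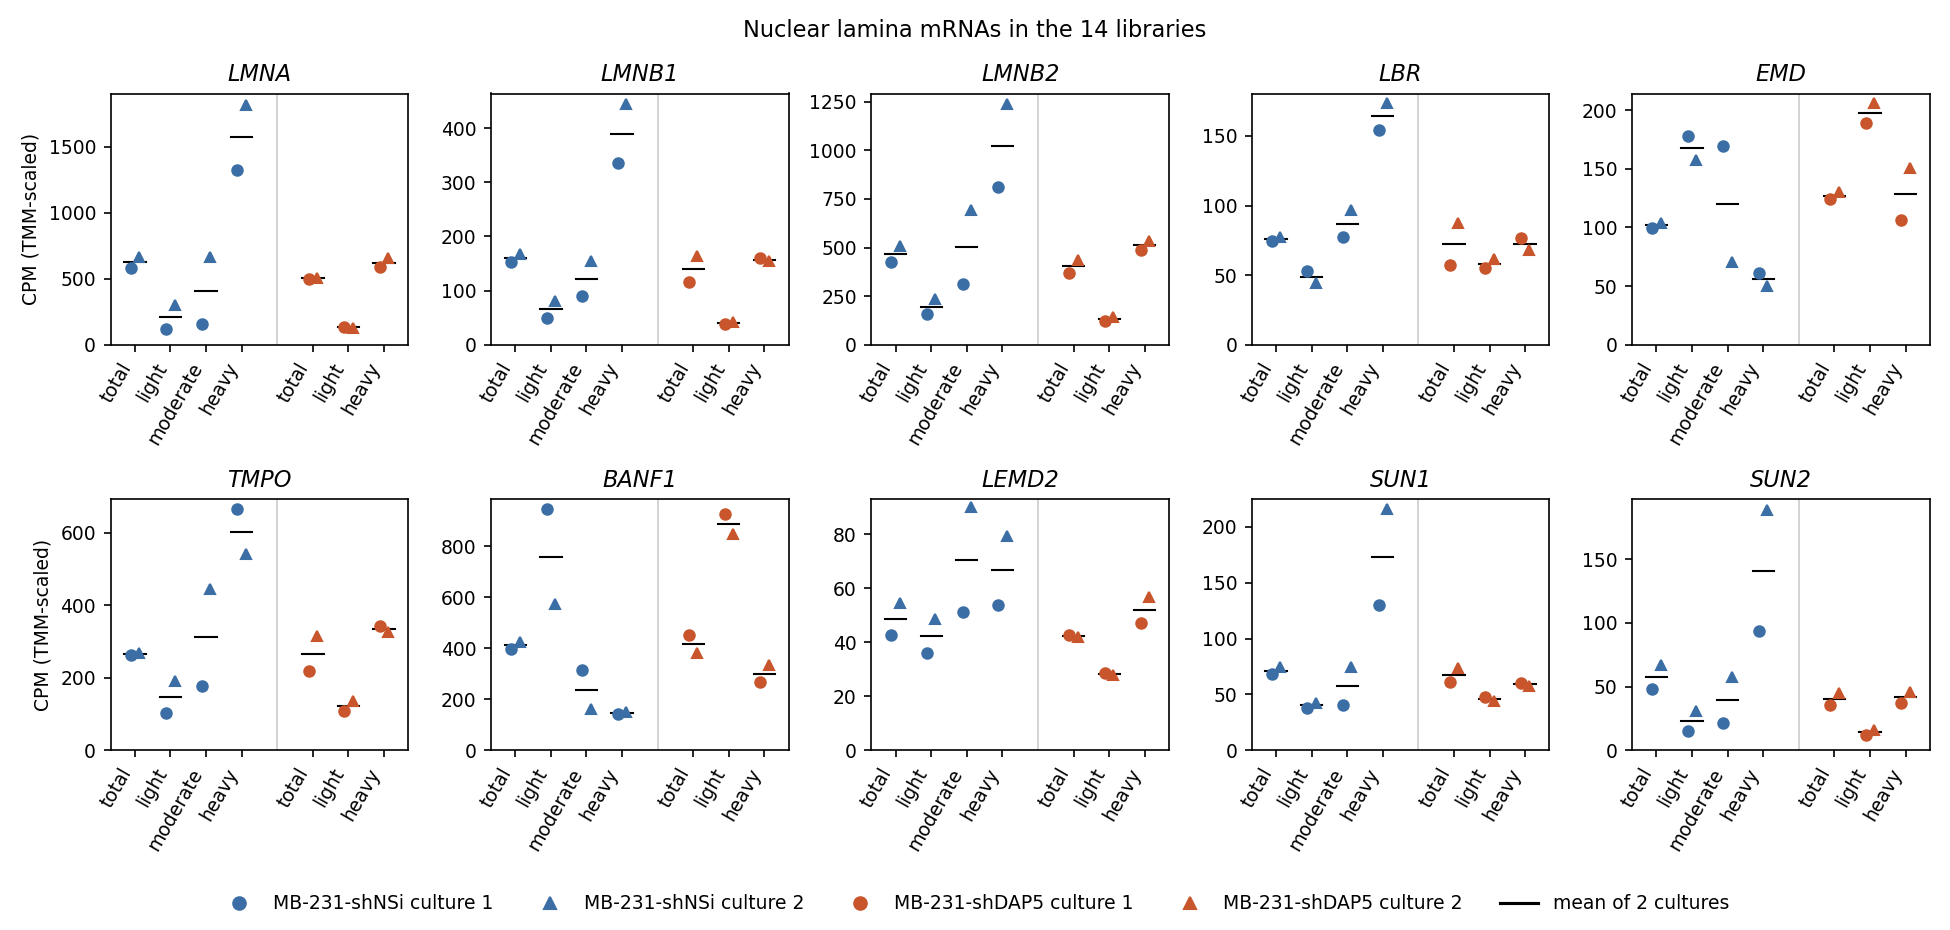
CPM (TMM-scaled, linear axis from 0) of each nuclear lamina mRNA in the 14 libraries, with one symbol per culture and a line at the mean of 2 cultures, MB-231-shNSi on the left and MB-231-shDAP5 on the right of each panel. LMNA reached 1321 and 1817 in the heavy libraries of MB-231-shNSi, whereas BANF1 was highest in light polysomes of both lines.

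The moderate pool, present in MB-231-shNSi only, was compared with the heavy pool of the same cultures. Of the 10 members, 1 was higher in moderate polysomes (12.9% of 15514 genes), namely EMD at 1.09 (standard error 0.32, adjusted p = 0.0157), and 7 were lower (23.1%). These were LMNA at −2.15 (standard error 0.42, adjusted p = 0.00120), SUN2 at −1.84, LMNB1 at −1.66, SUN1 at −1.55, LMNB2 at −1.04, TMPO at −1.03 and LBR at −0.87. BANF1 (0.69, adjusted p = 0.139) and LEMD2 (0.11, adjusted p = 0.750) did not pass the threshold. The 2 moderate libraries stood apart for several members: the moderate over heavy ratio within a culture was −3.09 and −1.46 (log2) for LMNA, −1.90 and −0.28 for TMPO and 1.46 and 0.48 for EMD. By library size, 4447 genes were called higher and 2706 lower, against 2009 and 3582 with TMM, the median of all genes moved from 0.10 to 0.45, and 2 members were called higher and 4 lower. Without a term for each culture, 648 genes were called higher and 2156 lower, and LMNB1, SUN1 and SUN2 were the members called.

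After DAP5 silencing, total mRNA was compared first. By edgeR 0 of the 10 members were called, where 0.0867% of 14992 genes were higher and 0.267% lower, and 1 member, SUN2, had an unadjusted p under 0.05. DESeq2 and limma also called 0 of the members. Over all genes, 53 were called, or 386 without MB-231-shNSi culture 1, 130 without its culture 2, 0 without MB-231-shDAP5 culture 1 and 265 without its culture 2, and without MB-231-shDAP5 culture 1 712 had an unadjusted p under 0.05. By library size 18 were called, 6 higher and 12 lower, by DESeq2 273 and by limma 5. The log2 values ran from −0.48 to 0.35, with a median of −0.11 beside 0.01 for all genes tested. LMNA had 584 and 665 CPM in MB-231-shNSi and 500.1 and 505 in MB-231-shDAP5, so that the lines did not overlap, at a log2 value of −0.29 (standard error 0.17, adjusted p = 0.534). SUN2 had 48.3 and 66.9 CPM in MB-231-shNSi and 35.8 and 45.2 in MB-231-shDAP5, without overlap, and the lowest value of the members, −0.48 (standard error 0.21, adjusted p = 0.372). EMD had 99.7 and 104 CPM in MB-231-shNSi and 124 and 129.8 in MB-231-shDAP5, also without overlap. Its value was the highest of the members, 0.35 (standard error 0.17, adjusted p = 0.452). The lines overlapped for the other members, and the share of all genes without overlap in total mRNA was not computed.

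In heavy polysomes the members moved in both directions. EMD and BANF1 rose (14.2% of 14270 genes were higher), and 5 members fell, LMNA, LMNB1, LBR, SUN1 and SUN2 (16.7% were lower). LMNB2, TMPO and LEMD2 did not pass the threshold by edgeR, while DESeq2 also called LMNB2 (−0.90) and TMPO (−0.75) lower, with 1478 genes higher and 2559 lower. The members' median log2 change was −0.90, against 0.09 for all genes tested. By library size the median of all genes shifted to 0.34 and that of the members to −0.65, 2504 genes were called higher and 1139 lower, against 2024 and 2390 with TMM, and LMNA, EMD, BANF1, SUN1 and SUN2 were called in the same direction. The heavy levels of the lines did not overlap for 9 members, 2 higher (29% of genes) and 7 lower (37%).

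Among the lamins, LMNA was at 1321 and 1817 CPM in heavy polysomes of MB-231-shNSi and 585 and 658 in MB-231-shDAP5. Both silenced cultures lay below both controls, and the log2 change was −1.15 (standard error 0.38, adjusted p = 0.0138). LMNB1 was at 335 and 444 CPM in MB-231-shNSi and 159 and 155 in MB-231-shDAP5, again without overlap, and changed by −1.12 (standard error 0.35, adjusted p = 0.00991). LMNB2 was at 812 and 1237 CPM in MB-231-shNSi and 488 and 535 in MB-231-shDAP5, which also did not overlap, but its value of −0.81 (standard error 0.37, adjusted p = 0.0821) did not pass the threshold. LMNA was not called without MB-231-shNSi culture 2 (−0.94), MB-231-shDAP5 culture 1 (−1.12) or MB-231-shDAP5 culture 2 (−1.27), nor LMNB1 without MB-231-shNSi culture 2 (−0.95), MB-231-shDAP5 culture 1 (−1.20) or MB-231-shDAP5 culture 2 (−1.13), and LMNB2 was called without MB-231-shNSi culture 1 (−1.18). HNRNPD, which encodes AUF1, and GAPDH were the study's other controls, likewise measured there as protein after DAP5 siRNA. Their mRNA levels in heavy polysomes were not called different. HNRNPD had 949 and 749.6 CPM in MB-231-shNSi and 637 and 888 in MB-231-shDAP5, overlapping, with a log2 value of 0.03 (standard error 0.37, adjusted p = 0.961). Its mean CPM, on factors from the 14 libraries, was lower in MB-231-shDAP5, whereas the fit used factors from the 4 heavy libraries. GAPDH had 15305 and 14074 CPM in MB-231-shNSi and 8122 and 11144 in MB-231-shDAP5, without overlap, with −0.42 (standard error 0.40, adjusted p = 0.430). HNRNPD was below 0 by DESeq2 (−0.043), and GAPDH above 0 by limma (0.15).

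Of the membrane and chromatin-binding members, EMD was at 61.5 and 50.3 CPM in heavy polysomes of MB-231-shNSi and 107 and 150.4 in MB-231-shDAP5. The silenced cultures were both above the controls, and EMD rose by 1.39 (standard error 0.33, adjusted p = 0.000585). BANF1 had 144 and 149 CPM in MB-231-shNSi and 267 and 334 in MB-231-shDAP5, likewise without overlap, and rose by 1.22 (standard error 0.35, adjusted p = 0.00435). LBR had 154 and 174 CPM in MB-231-shNSi and 76.6 and 68.4 in MB-231-shDAP5, with the silenced cultures below the controls, at −0.99 (standard error 0.33, adjusted p = 0.0140). TMPO had 665 and 540.5 CPM in MB-231-shNSi and 342 and 325 in MB-231-shDAP5, which did not overlap, and a log2 value of −0.67 (standard error 0.36, adjusted p = 0.146). LEMD2 was the member with overlapping lines, at 54.0 and 79.6 CPM in MB-231-shNSi and 47.2 and 56.8 in MB-231-shDAP5, with −0.17 (standard error 0.33, adjusted p = 0.722). EMD was not called without MB-231-shDAP5 culture 2 (1.08), BANF1 without MB-231-shDAP5 culture 2 (1.02) and LBR without MB-231-shNSi culture 2 (−0.95), MB-231-shDAP5 culture 1 (−1.13) or MB-231-shDAP5 culture 2 (−0.95).

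The SUN genes had the lowest log2 changes among the members. SUN1 was at 130.0 and 216 CPM in heavy polysomes of MB-231-shNSi and 60.3 and 58.0 in MB-231-shDAP5, and SUN2 at 93.8 and 188 CPM in MB-231-shNSi and 37.2 and 46.0 in MB-231-shDAP5. The control cultures lay above the silenced ones in both genes and differed among themselves more than the silenced ones did. SUN1 changed by −1.36 (standard error 0.33, adjusted p = 0.000794) and SUN2 by −1.57 (standard error 0.33, adjusted p = 0.000115). SUN1 was not called without MB-231-shNSi culture 2 (−0.99) or MB-231-shDAP5 culture 2 (−1.36), and SUN2 without MB-231-shNSi culture 2 (−1.03) or MB-231-shDAP5 culture 2 (−1.76).

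The count of called members depended on single libraries and on the control pool. By edgeR it was 0 without MB-231-shDAP5 culture 2, with 7 at an unadjusted p under 0.05, 4 without MB-231-shDAP5 culture 1, 2 (EMD and BANF1) without MB-231-shNSi culture 2 and 8 without MB-231-shNSi culture 1. Over all genes, 4414 were called, or 3559 without MB-231-shNSi culture 1, 2106 without its culture 2, 2935 without MB-231-shDAP5 culture 1 and 2 without its culture 2. Against the moderate pool of MB-231-shNSi, or the heavy and moderate pools summed, 0 members were called by edgeR, the one tool run on these pools, with 0 and 2 at an unadjusted p under 0.05. Over all genes, 50 of 14539 and 421 of 15184 were called. Against the moderate pool LMNA had a log2 value of 0.62, LMNB1 0.38, SUN1 0.05, SUN2 0.08 and LBR −0.25. EMD and BANF1 were at 0.10 and 0.34.

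**Figure D2:**
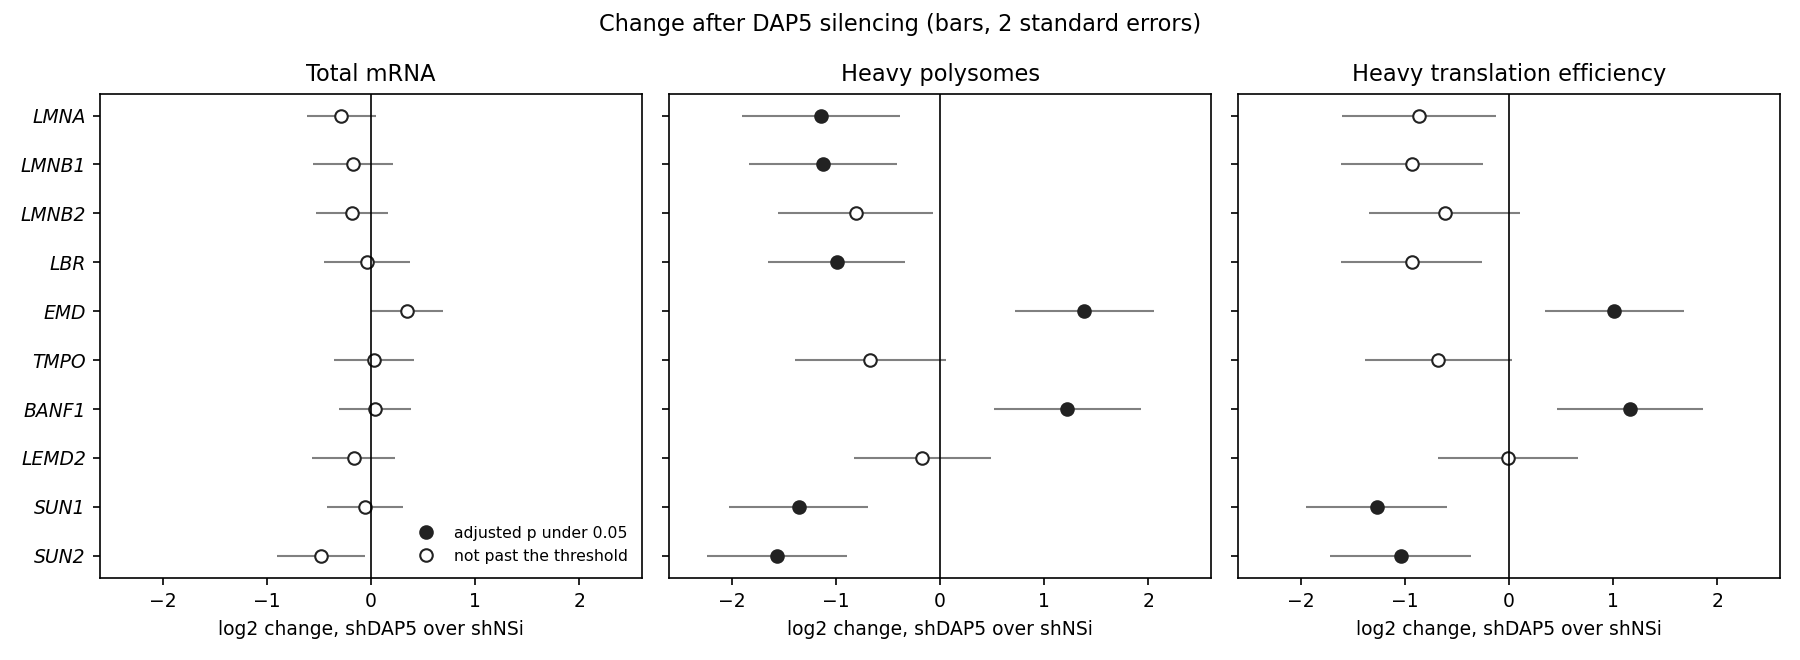
Log2 change of MB-231-shDAP5 over MB-231-shNSi for each member in total mRNA, heavy polysomes and heavy translation efficiency, with bars of 2 standard errors and filled points for an adjusted p under 0.05. In heavy polysomes EMD (1.39) and BANF1 (1.22) lie above 0 and the other 8 below it, with LEMD2 (−0.17) at 0.07 when scaled by library size.

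**Figure D3:**
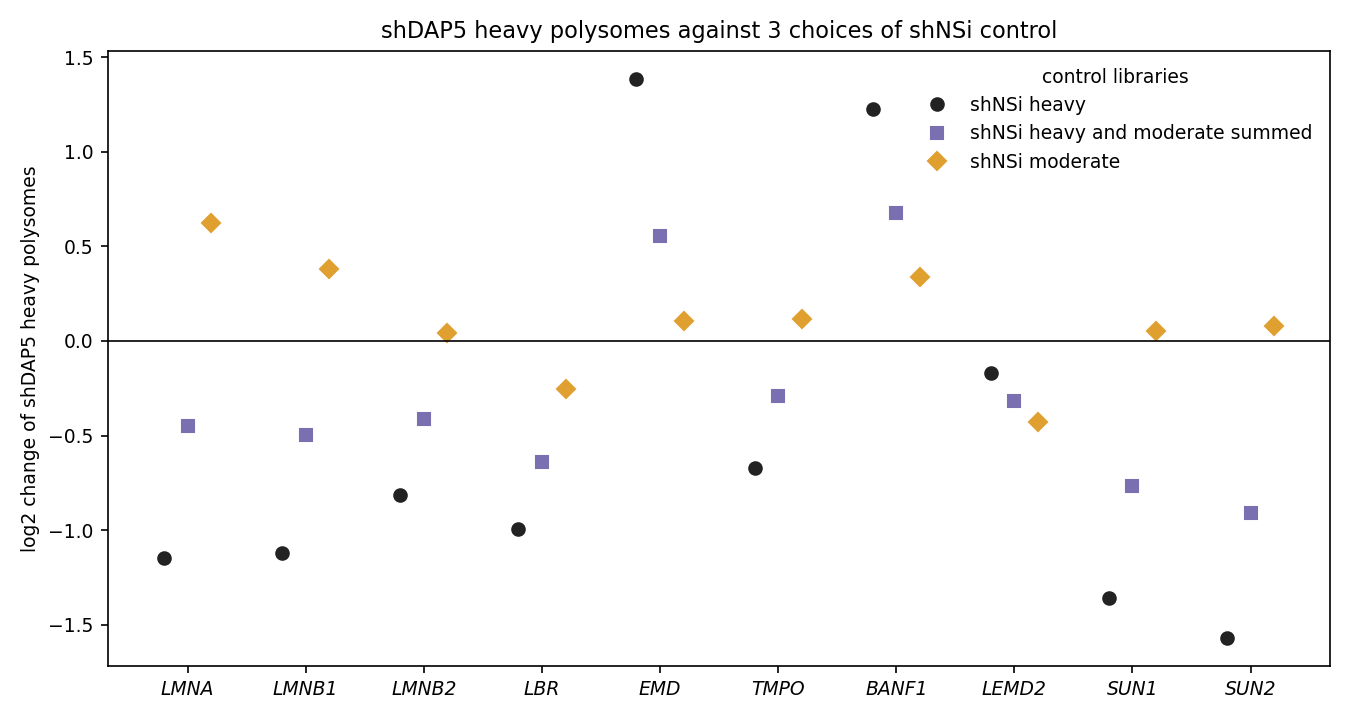
Log2 change of MB-231-shDAP5 heavy polysomes for each member against the heavy, the summed heavy and moderate, or the moderate libraries of MB-231-shNSi (1 fit each, 2 cultures per line). LMNA moves from −1.15 against the heavy pool to −0.45 against the summed pools and 0.62 against the moderate pool.

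Heavy translation efficiency, the heavy polysome over total mRNA ratio of the same culture, was tested as the interaction of fraction and shRNA. Again 2 members rose, EMD and BANF1 (4.85% of 15374 genes were higher), and 2 fell, SUN1 and SUN2 (8.23% were lower). The members' median was −0.77 and that of all genes tested 0.09. For EMD the log2 heavy over total ratio was −0.70 and −1.05 in the MB-231-shNSi cultures and −0.22 and 0.21 in the MB-231-shDAP5 cultures, and for BANF1 −1.48 and −1.51 in MB-231-shNSi and −0.76 and −0.19 in MB-231-shDAP5. In both genes each silenced culture was above each control, with changes of 1.01 (standard error 0.34, adjusted p = 0.0383) and 1.16 (standard error 0.35, adjusted p = 0.0250). Such separation was not particular to the called members, since LEMD2 was the one member whose ratios overlapped between the lines. The share of all genes without overlap in this ratio was not computed. EMD was not called without MB-231-shNSi culture 1 (1.15), MB-231-shNSi culture 2 (0.84) or MB-231-shDAP5 culture 2 (0.76), and BANF1 without MB-231-shNSi culture 1 (1.15), MB-231-shNSi culture 2 (1.15) or MB-231-shDAP5 culture 2 (0.85).

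For SUN1 the log2 ratio was 0.93 and 1.54 in MB-231-shNSi and −0.02 and −0.35 in MB-231-shDAP5, and for SUN2 0.96 and 1.49 in MB-231-shNSi and 0.06 and 0.03 in MB-231-shDAP5. The control cultures were above the silenced ones in both, and the changes were −1.27 (standard error 0.34, adjusted p = 0.0140) and −1.04 (standard error 0.34, adjusted p = 0.0357). LMNA had ratios of 1.18 and 1.45 in MB-231-shNSi and 0.23 and 0.38 in MB-231-shDAP5, which did not overlap, and a log2 value of −0.86 (standard error 0.37, adjusted p = 0.106) that did not pass the threshold. LMNB1 (−0.93, adjusted p = 0.0602) and LBR (−0.94, adjusted p = 0.0558) did not pass it either, and the remaining members, LMNB2, TMPO and LEMD2, lay between −0.68 and −0.01, with LEMD2 above 0 by library size. SUN1 was not called without MB-231-shNSi culture 2 (−0.97) or MB-231-shDAP5 culture 2 (−1.14), and SUN2 without MB-231-shNSi culture 1 (−1.34), MB-231-shNSi culture 2 (−0.77) or MB-231-shDAP5 culture 2 (−1.06), while LMNB1 and LBR were called without MB-231-shDAP5 culture 1 (−1.17 and −1.30).

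These calls were lost under several alternatives. By library size, 0 of 15374 genes were called by edgeR (4599 at an unadjusted p under 0.05, 4 of them members), the median of all genes moved to 0.30, and EMD, BANF1, SUN1 and SUN2 kept their directions. Without a term for each culture 0 members and 0 genes were called by edgeR (7 members and 3472 genes at an unadjusted p under 0.05). With the replicate number as a block, edgeR called 0 members and 688 genes. DESeq2 called 7 members, with 591 genes higher and 1536 lower, and limma on quantile-normalized values called 1, BANF1, with 241 genes higher and 167 lower, against 746 and 1266 by edgeR with TMM. Leaving out MB-231-shNSi culture 2 or MB-231-shDAP5 culture 2 left 0 members called by edgeR, with 1 and 5 at an unadjusted p under 0.05, leaving out MB-231-shNSi culture 1 left 1, SUN1, and leaving out MB-231-shDAP5 culture 1 gave 6. Over all genes, 2012 were called, or 572 without MB-231-shNSi culture 1, 4 without its culture 2, 4515 without MB-231-shDAP5 culture 1 and 43 without its culture 2. With the moderate pool of MB-231-shNSi in place of the heavy pool, 0 members and 0 of 15434 genes were called by edgeR, 1 member and 455 genes had an unadjusted p under 0.05, and the log2 values of LMNA, EMD, SUN1 and SUN2 were 1.24, −0.13, 0.17 and 0.70.

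In light polysomes, 0 of the 10 members were called by edgeR against the light pool of MB-231-shNSi (0% of 15529 genes), with 1 member, LMNB1, at an unadjusted p under 0.05, and 0 members by DESeq2 or limma. Of all genes, 1330 had an unadjusted p under 0.05, DESeq2 called 105 and limma 0. The log2 values ran from −0.72 to 0.25, with a median of −0.42 beside −0.01 for all genes. LMNA had 122 and 301 CPM in the light libraries of MB-231-shNSi and 134 and 127 in those of MB-231-shDAP5, and BANF1 946 and 576 CPM in MB-231-shNSi and 929 and 848 in MB-231-shDAP5. MB-231-shNSi culture 1 was close to both silenced cultures in these genes and culture 2 stood apart, and without culture 1 LMNA, LMNB1, LMNB2, TMPO, LEMD2 and SUN2 were called lower. LMNA was then at −1.23. With a culture left out, the genes called numbered 4678 without MB-231-shNSi culture 1, 781 without its culture 2, 2 without MB-231-shDAP5 culture 1 and 6 without its culture 2. Light translation efficiency likewise had 0 of 10 members called by edgeR (0% of 15967 genes), 0 at an unadjusted p under 0.05 and 0 by DESeq2 or limma, with 833 genes at an unadjusted p under 0.05 and 0 genes called by either tool, and without MB-231-shNSi culture 1 it had 4 called members and 2030 called genes.

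Against the moderate pool of MB-231-shNSi, whose code the MB-231-shDAP5 light libraries carry, 5 members were called. BANF1 was higher in the silenced cells, at 1.90, while LMNB2 (−1.92), LMNB1 (−1.60), LEMD2 (−1.31) and SUN2, with a value between those of LMNB1 and LEMD2, were lower. Over all genes this comparison called 3940 of 15431. For light translation efficiency the moderate pool also gave 5 called members, with TMPO in place of SUN2, and 4367 of 15859 genes.

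Within MB-231-shDAP5 the heavy and light polysomes were compared in the same way. Of the 10 members, 6 were higher in heavy polysomes (25.9% of 15619 genes) and EMD and BANF1 were lower (24.8%), whereas LBR and SUN1 did not pass the threshold. The median was 1.13, with −0.02 for all genes, or −0.22 by library size. By library size, 2960 genes were called higher and 4605 lower, against 4041 and 3881 with TMM, and the members kept their directions and their side of the threshold. LMNA had 134 and 127 CPM in light and 585 and 658 in heavy polysomes, a difference of 2.21 (standard error 0.22, adjusted p = 0.000114). LMNB1, LMNB2, SUN2, TMPO and LEMD2 differed by 1.94, 1.93, 1.54, 1.42 and 0.84, and EMD and BANF1 by −0.67 and −1.59. SUN1 had 48.1 and 43.7 CPM in light and 60.3 and 58.0 in heavy polysomes, and LBR had 55.2 and 61.3 in light and 76.6 and 68.4 in heavy polysomes. The heavy levels of these 2 genes were above the light ones in both cultures, at 0.33 (standard error 0.19, adjusted p = 0.174) and 0.29 (standard error 0.21, adjusted p = 0.270).

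The difference between the lines in heavy against light polysomes was tested as an interaction. SUN1 and LBR were called, both lower in MB-231-shDAP5 (5.21% of 15878 genes were lower, 1.54% higher), and 0 members were called higher by edgeR with TMM or by DESeq2. The log2 heavy over light ratio of SUN1 was 1.78 and 2.35 in the MB-231-shNSi cultures and 0.32 and 0.41 in the MB-231-shDAP5 cultures, and that of LBR 1.54 and 1.96 in MB-231-shNSi and 0.47 and 0.16 in MB-231-shDAP5. The differences between the lines were −1.60 (standard error 0.41, adjusted p = 0.0266) and −1.34 (standard error 0.40, adjusted p = 0.0494). The ratios of the lines did not overlap for these genes, nor for the other members except TMPO. The share of all genes without overlap in this ratio was not computed. EMD at 1.05 (adjusted p = 0.129), SUN2 at −0.95 (adjusted p = 0.132) and LMNA at −0.67 (adjusted p = 0.459) did not pass the threshold. The members' median was −0.54 and that of all genes 0.05, or 0.29 by library size, where 995 genes were higher and 642 lower against 245 and 827 with TMM, and the called members were EMD and SUN1. SUN1 was not called without MB-231-shNSi culture 2 (−1.31), MB-231-shDAP5 culture 1 (−1.59) or MB-231-shDAP5 culture 2 (−1.64), nor LBR without MB-231-shNSi culture 2 (−1.12), MB-231-shDAP5 culture 1 (−1.53) or MB-231-shDAP5 culture 2 (−1.18), and 6, 2 and 1 members then had an unadjusted p under 0.05. Over all genes, 1072 were called, or 2929 without MB-231-shNSi culture 1, 747 without its culture 2, 789 without MB-231-shDAP5 culture 1 and 2 without its culture 2. With the moderate pool of MB-231-shNSi in place of the light pool, an alternative chosen after the data were seen, SUN1 was at −1.15 and called, LBR at −0.51 and not called, and LEMD2 at 1.02 and called higher, with 1875 of 15754 genes called higher and 1887 lower. Without a term for each culture 0 members and 0 of 15878 genes were called by edgeR, and 3 members and 3443 genes had an unadjusted p under 0.05.

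**Figure D4:**
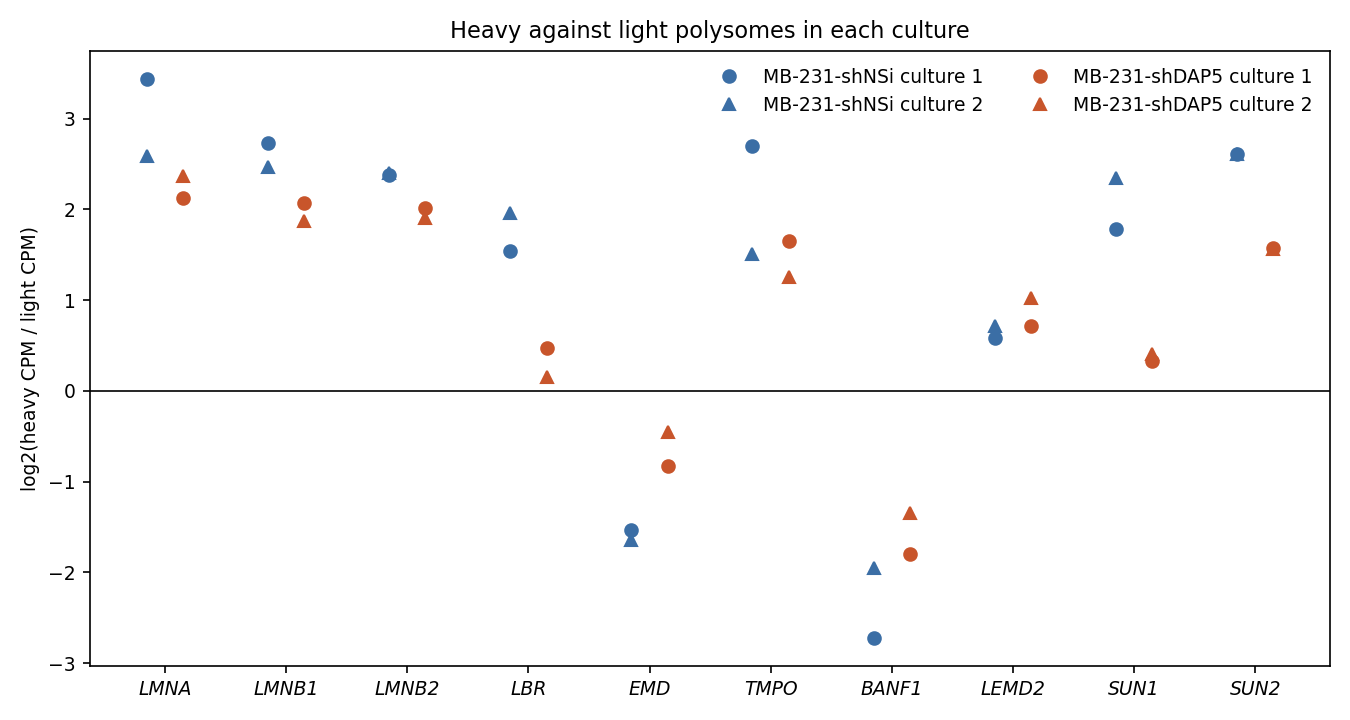
Log2 ratio of heavy to light polysome CPM in each of the 4 cultures for the 10 members, 1 symbol per culture, with a line at equal levels. EMD and BANF1 lie below 0 in the 4 cultures and the other members above it, and SUN1 is at 1.78 and 2.35 in MB-231-shNSi and 0.32 and 0.41 in MB-231-shDAP5.

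Coding length was then compared with these values. Across the members, the 2 with the shortest coding sequences, BANF1 with 89 codons and EMD with 254, were the 2 lower in heavy polysomes of MB-231-shNSi and the 2 that rose after silencing. Spearman's rho between coding length and the change in heavy translation efficiency was −0.81 over the 10 members and −0.71 over 12467 genes with a coding length, and for heavy against light polysomes in MB-231-shNSi it was 0.66 and 0.64. In the other 7 of the 9 comparisons examined, it was 0.45 over the members and 0.30 over all genes for heavy against light polysomes in MB-231-shDAP5, −0.83 and −0.70 for the difference between the lines, −0.52 and −0.11 for total mRNA, −0.35 and 0.13 for light polysomes, −0.81 and −0.65 for heavy polysomes, −0.72 and −0.74 for moderate against heavy polysomes in MB-231-shNSi, and 0.12 and 0.30 for light translation efficiency. These correlations run across genes measured in the same libraries, which are not independent replicates. With offsets for coding length fitted in each library, 1 member was called in heavy polysomes (1430 of 12122 genes), SUN2 at −1.06, EMD was at 0.80, BANF1 at 0.19, SUN1 at −0.79 and LMNA at −0.73. In heavy translation efficiency 0 members were called by edgeR with these offsets (533 of 12467 genes), and 4 had an unadjusted p under 0.05. There EMD was at 0.49, BANF1 at 0.30, SUN1 at −0.75 and SUN2 at −0.58.

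**Figure D5:**
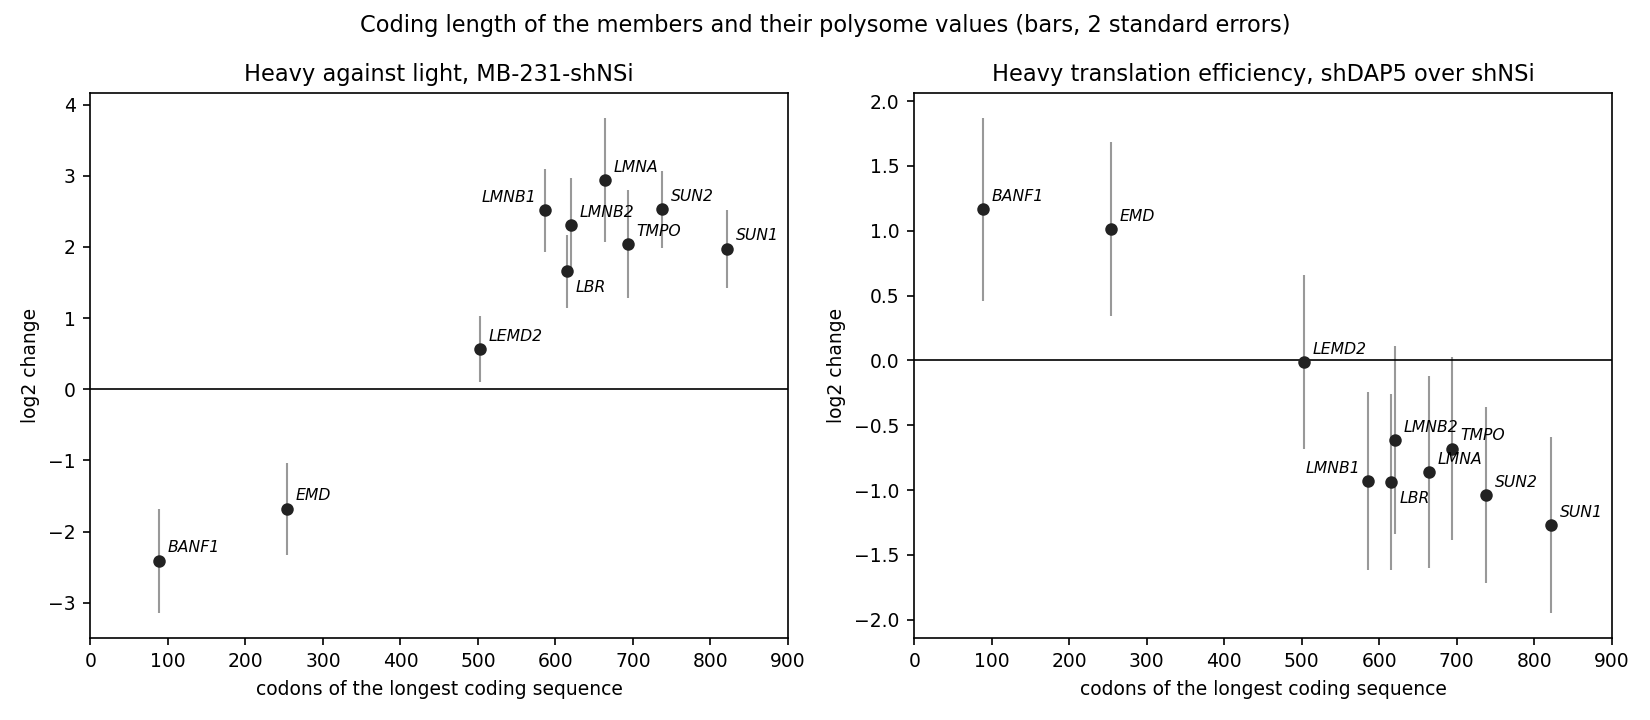
Codons of the longest coding sequence of each member (linear axis) against its log2 difference between heavy and light polysomes in MB-231-shNSi, left, and its log2 change in heavy translation efficiency, right, with bars of 2 standard errors. BANF1 and EMD, at 89 and 254 codons, have the lowest values on the left (−2.41 and −1.68) and the highest on the right (1.16 and 1.01).

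A list of 24 other nuclear envelope genes was examined beside the members. It held nesprins, further LEM-domain proteins, torsins and their partners, the enzymes that process the CaaX end of the lamins, and further genes linked to the envelope. Of the 24 genes, 22 passed the filter on low counts, and SYNE4 and LEMD1 did not. In heavy polysomes 0 rose (14.2% of 14270 genes) and 11 fell (16.7%) after silencing, and the median of the 22 was −0.74, with 0.09 for all genes. SYNE2, a nesprin, had the lowest value (−1.64, standard error 0.34, adjusted p = 7.48e-05), then ZMPSTE24, the protease that clips prelamin A (−1.59, adjusted p = 8.86e-05), LEMD3, a LEM-domain protein (−1.46, adjusted p = 0.000485), and the nesprins SYNE3 (−1.33) and SYNE1 (−1.10). Against the moderate pool of MB-231-shNSi 0 of the list were called, SYNE2, LEMD3 and SYNE1 were at 0.37, 0.07 and 0.40, and ZMPSTE24 and SYNE3 at −0.82 and −0.30. DESeq2 called 10 of the list and 4037 genes, and edgeR by library size 5 of the list and 3643 genes. By edgeR with TMM, all calls of the list were lost without MB-231-shDAP5 culture 2, with SYNE2 at −1.38 and ZMPSTE24 at −1.69. Fewer were called without its culture 1 or without MB-231-shNSi culture 2, and as many without MB-231-shNSi culture 1. The numbers called over all genes, given above, fell in each of these fits.

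In heavy translation efficiency 0 of the 22 rose (4.85% of 15374 genes) and 4 fell (8.23%), SYNE2 at −1.34, LEMD3 at −1.21, SYNE1 at −1.18 and ZMPSTE24 at −1.12, and by library size 0 were called. Against the moderate pool of MB-231-shNSi, SYNE2, LEMD3 and SYNE1 changed direction, to 0.59, 0.35 and 0.32, and ZMPSTE24 stayed below 0. With TMM, calls of the list were lost without MB-231-shNSi culture 1, and all of them without either culture 2, while more were called without MB-231-shDAP5 culture 1. The numbers called over all genes, given above, moved in the same directions. SYNE2 was at −1.96 without MB-231-shNSi culture 1, −0.75 without its culture 2 and −0.78 without MB-231-shDAP5 culture 2. In MB-231-shNSi, 13 of the 22 were higher (33.8% of 15514 genes) and 5 lower (31.9%) in heavy than in light polysomes, and 3 were higher (12.9%) and 7 lower (23.1%) in the moderate than in the heavy pool. In MB-231-shDAP5, 8 were higher (25.9% of 15619 genes) and 2 lower (24.8%) in heavy than in light polysomes. The difference between the lines was called for LEMD3 (−1.90, standard error 0.40, adjusted p = 0.0175) and ZMPSTE24 (−1.45, standard error 0.39, adjusted p = 0.0324), but not for LEMD3 without MB-231-shDAP5 culture 2 (−1.76) nor for ZMPSTE24 without MB-231-shDAP5 culture 1 (−1.62) or MB-231-shDAP5 culture 2 (−1.31). ZMPSTE24 was also not called by library size (−1.21) or with the moderate pool in place of light (−0.50), and neither gene was called without a term for each culture. Over the 10 alternatives with a test, ZMPSTE24 passed the threshold in 4 and LEMD3 in 8. In total mRNA, light polysomes and light translation efficiency, edgeR called 0 of the 22, as did DESeq2 and limma, with 5, 3 and 1 at an unadjusted p under 0.05. Without MB-231-shNSi culture 1, calls appeared in total mRNA and in light polysomes, and without MB-231-shDAP5 culture 2 in total mRNA. The numbers called over all genes, given above, rose in the same fits. Against the moderate pool of MB-231-shNSi, 9 of the 22 were called in light polysomes (3940 of 15431 genes). In light translation efficiency 5 were called (4367 of 15859 genes).

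The members' profiles were also compared over the 14 libraries, as log2 CPM centred on the gene's mean. Pearson's r between pairs of the 8 longer members lay between 0.616 and 0.979, and between EMD or BANF1 and these 8 it lay between −0.945 and −0.774. The libraries are fractions of 4 cultures, so these values describe the profiles and carry no test. The genes with a mean of at least 10 CPM whose profile differed least from that of LMNA, by the root mean square difference in log2, were CCT3 (0.108), CCT2 (0.150) and LAS1L (0.152). For LMNB1 they were SYNCRIP (0.170), TFIP11 (0.171) and KPNA6 (0.176), and for BANF1 POLR1D (0.0892), NHP2 (0.0902) and S100A13 (0.0925). Ranked by Pearson's r instead, 1, 1 and 2 of these 3 genes stayed among the nearest 3 for LMNA, LMNB1 and BANF1.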

How the data were processed

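Read counts per gene symbol were deposited by the authors as whole numbers without normalization, for 14 libraries of total and polysome mRNA. The submitters' processing notes name STAR 2.6.0a, hg19 and limma, while the counting tool appears in the name of the deposited table alone (featureCounts, with the abbreviation rev, not explained). In R 4.3.3, each comparison was filtered with filterByExpr (minimum count 10), scaled by TMM and tested with the robust quasi-likelihood test of edgeR 4.0.16, with Benjamini-Hochberg adjustment over all genes tested and a threshold of 0.05. Translation efficiency, gradient and interaction fits had a term for each culture. The depth, at least 25899838 counts per library, leaves the spread between 2 cultures as the limit of precision. Coding and exon lengths and sequences came from GENCODE v29 (37619 of 58434 symbols matched). Named were the members, EIF4G2, HNRNPD, GAPDH, cell line markers, the list of 24 other nuclear envelope genes, of which at most 5 called genes per comparison with the largest change, and the 3 genes most alike for LMNA, LMNB1 and BANF1, with 0.5 CPM added before log2. Alternatives were DESeq2 1.42.0, library size without TMM, no filter, limma 3.58.1 on quantile-normalized log2(CPM + 1), other MB-231-shNSi control pools, coding length offsets (a natural spline with 4 degrees of freedom per library), no term for each culture, the replicate number as a block and each culture left out. Chosen after seeing the data were the moderate pool in place of light in the difference between the lines, crossed replicate numbers, and the alternatives for EIF4G2, HNRNPD, GAPDH, VIM, CD44 and the other nuclear envelope genes. The members and lists were chosen with earlier results of these data known.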

Additional observations from a re-analysis of the deposited data

Results flagged for a closer look

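For 2 members the effect of DAP5 silencing differed between heavy and light polysomes, by the interaction of fraction and shRNA, and both were called lower, as were 5.21% of 15878 genes, while 1.54% were called higher. The heavy over light log2 difference of MB-231-shDAP5 minus that of MB-231-shNSi was −1.34 for LBR (adjusted p = 0.0494) and −1.60 for SUN1 (adjusted p = 0.0266). In both genes the heavy over light ratio of each of the 2 MB-231-shDAP5 cultures was below that of each of the 2 MB-231-shNSi cultures. The genes were picked by a test on these same libraries, so this adds no support to the calls. Of the other members, TMPO alone overlapped between the lines, and the share over all genes was not computed. Over the 10 alternatives with a test, the adjusted p of LBR ran from 0.00782 to 0.776 and passed the threshold in 3, and that of SUN1 ran from 0.000983 to 0.533 and passed it in 6.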

How the results depend on the processing

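Of 661 values under the alternatives, for the 71 results printed for single genes in total mRNA, heavy polysomes, heavy translation efficiency, the gradients and their difference, 444 kept their direction and, where a test was possible, their side of the threshold, 158 lost a call, 10 gained one, 29 changed direction, and 20, with a culture left out and no test possible, moved by more than 1 standard error. Members given above as a range, and light polysomes, are not in these numbers. Called members in heavy polysomes went from 7 (with 4414 genes) to 9 by DESeq2 (4037 genes), to 5 by library size (3643 genes), to 0 with the summed or the moderate MB-231-shNSi pools and to 1 with coding length offsets. In heavy translation efficiency the 4 calls became 7 by DESeq2, 1 by limma, 3 without the filter, and 0 by library size, with the summed or moderate pools, with coding length offsets or without a term for each culture. With the moderate pool as control, light polysomes and light translation efficiency had 5 called members each. Without a term for each culture, heavy against light polysomes in MB-231-shNSi had 9 in place of 10 called members, moderate against heavy polysomes 3 in place of 8, and the difference between the lines in heavy against light polysomes 0 in place of 2. With a culture left out in turn, the called members numbered 0 to 8 in heavy polysomes, 0 to 6 in light polysomes, 0 to 6 in heavy and 0 to 4 in light translation efficiency and 0 to 2 in the difference between the lines, the lone culture being assumed to vary like the others; gradient fits then had no test.

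With the moderate pool as control, the log2 values in heavy polysomes changed direction for LMNA (0.62), LMNB1 (0.38), LMNB2 (0.042), TMPO (0.12), SUN1 (0.051), SUN2 (0.080), GAPDH (0.19), SYNE2 (0.37), LEMD3 (0.069), SYNE1 (0.40), VIM (0.46) and the members' median (0.092). In heavy translation efficiency they did so for LMNA (1.24), LMNB1 (0.62), LMNB2 (0.33), TMPO (0.24), EMD (−0.13), SUN1 (0.17), SUN2 (0.70), SYNE2 (0.59), LEMD3 (0.35), SYNE1 (0.32) and the median (0.29). With that pool in place of light, the difference between the lines changed direction for LMNA (0.068), LMNB1 (0.35), LMNB2 (0.95), TMPO (0.45), BANF1 (−0.85) and the median (0.21). In heavy polysomes, LEMD2 was at 0.071 by library size and −0.52 to 0.093 with a culture left out, HNRNPD at −0.043 by DESeq2, −0.052 without the filter, −0.20 with coding length offsets and −0.27 to 0.21 with a culture left out, and GAPDH at 0.15 by limma. LEMD2 in moderate against heavy polysomes ran from −0.080 to 0.16 with a culture left out. In light polysomes, members that changed direction were LBR (−0.57) and SUN1 (−0.32) with the moderate pool, and LMNA (0.10), TMPO (0.26) and BANF1 (−0.095) without MB-231-shNSi culture 2. In light translation efficiency they were LBR, EMD and SUN1 with the moderate pool, EMD without MB-231-shNSi culture 1, and LMNA, TMPO, BANF1 and SUN2 without its culture 2. LEMD2 was above 0 in heavy translation efficiency by library size, by limma, with coding length offsets, and without MB-231-shNSi culture 2 or MB-231-shDAP5 culture 1. TMPO was above 0 in the difference between the lines without MB-231-shNSi culture 1. In total mRNA LBR was above 0 by library size, and LMNB1, LBR, TMPO, BANF1, LEMD2 or SUN1 changed direction with some culture left out. The cause was not tested for any of these.

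The replicate numbers did not pair the lines: deviations of same-numbered cultures correlated across genes at −0.11 in total mRNA, 0.06 in heavy and 0.05 in light polysomes. With the number as a block, called members numbered 7 in heavy polysomes (4710 genes), 0 in heavy translation efficiency (688), 1, SUN1, in the difference between the lines (778), and 0 in total mRNA (365), light polysomes (130) and light translation efficiency (1). With the numbers crossed, chosen after seeing the data, the block called 0 members and 71 genes in total mRNA, where 53 genes were called without a block.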
